A study of Mus musculus with 18 samples.

Results

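Loxl4, Cpz, Igfbp3, Btn1a1, Gprc5c, Colec12 and Trim67 are 7 mouse genes whose transcripts were far more abundant in Esrrb null than in Esrrb floxed embryonic stem (ES) cells. They were picked for that rise, by symbol, from the 49671 genes of the count table, and all 7 were found under their identifiers in the GRCm38 annotation. The values that chose them are therefore given as a description without a test. The tests concern wild-type cultures, whose values the rule for picking the genes did not use. Earlier results of these data were known when the genes were picked. Esrrb null and Esrrb floxed cells were the same Esrrb fl/fl line at passage 25, labelled as coming from Acr-EGFP transgenic mice and carrying a tamoxifen-inducible Cre recombinase (MerCreMer). Both were grown in 3D culture for 24 h with the GSK3 inhibitor CHIR99021 (CH) at 3 µM, and only the null cells had received 4OHT, for 1 day beforehand. Wild-type E14 ES cells at passage 20 were grown in 3D for 48 h in DMSO (the solvent), in CH at 3 µM, in 2i (CHIR99021 at 3 µM with the MEK inhibitor PD0325901 at 0.4 µM), or in Fgf2 at 12 ng/ml with Activin A at 20 ng/ml. Each of the 6 groups had 3 samples, all from N2B27 medium and growth-factor-depleted Matrigel after maintenance in 2i/Lif. A single line stands for each genotype, and nothing in the labels says that same-group samples were separate experiments, so the p-values measure a spread that may be technical.

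Esrrb is an orphan nuclear receptor of the naive pluripotency network that binds the sequence TCAAGGTCA, and its gene responds to β-catenin. GSK3 inhibition stabilises β-catenin and keeps ES cells naive, whereas Fgf and Activin move them towards the state of the post-implantation epiblast. The 7 genes belong to different families. Loxl4 encodes a lysyl oxidase, a secreted copper enzyme that cross-links collagen and elastin. Cpz encodes carboxypeptidase Z, a secreted enzyme with a Frizzled-like domain, and Igfbp3 a secreted protein that binds insulin-like growth factors. Btn1a1 (butyrophilin, best known from milk fat globules), Gprc5c (an orphan receptor related to retinoic acid-induced Gprc5a) and Colec12 (a scavenger receptor with a collectin-type lectin domain) act at the cell surface. Trim67 is a RING-type ubiquitin ligase known mainly from neurons.

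The sequences just upstream of 4 of the genes are shown because a loss of Esrrb and a GSK3 inhibitor act through DNA-binding factors whose motifs can be looked for there. They come from RefSeq on GRCm38.p6 and are written 5′ to 3′ on the strand of the gene, without transcribed bases. Capitals mark the motif CTTTGA, the core of the TCF/LEF site, which reads TCAAAG on the other strand.
Loxl4 promoter, chr19:42612814-42613056, minus strand: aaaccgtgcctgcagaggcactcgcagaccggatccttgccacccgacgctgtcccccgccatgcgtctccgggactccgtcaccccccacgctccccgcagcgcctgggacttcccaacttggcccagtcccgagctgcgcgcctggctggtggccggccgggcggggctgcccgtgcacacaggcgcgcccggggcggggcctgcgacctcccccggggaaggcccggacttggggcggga
Cpz promoter, chr5:35525699-35525876, minus strand: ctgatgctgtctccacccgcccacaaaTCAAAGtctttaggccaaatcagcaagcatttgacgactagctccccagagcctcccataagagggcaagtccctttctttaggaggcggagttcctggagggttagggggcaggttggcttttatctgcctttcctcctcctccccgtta
Igfbp3 promoter, chr11:7213924-7214173, minus strand: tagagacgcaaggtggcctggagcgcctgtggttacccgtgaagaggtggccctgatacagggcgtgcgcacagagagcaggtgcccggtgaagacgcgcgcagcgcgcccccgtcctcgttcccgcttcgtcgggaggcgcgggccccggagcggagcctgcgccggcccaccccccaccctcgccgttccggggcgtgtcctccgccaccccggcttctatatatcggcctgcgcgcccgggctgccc
Trim67 promoter, chr8:124792769-124793018, plus strand: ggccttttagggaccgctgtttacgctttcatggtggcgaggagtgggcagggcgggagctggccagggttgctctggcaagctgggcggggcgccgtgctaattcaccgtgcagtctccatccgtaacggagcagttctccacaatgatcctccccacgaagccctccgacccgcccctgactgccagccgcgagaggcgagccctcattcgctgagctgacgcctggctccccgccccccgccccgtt
Windows of 300 bases, from 250 before to 50 after each start, were searched on both strands for TCAAGGTCA, for its part AAGGTCA, and for CTTTGA. Neither TCAAGGTCA nor AAGGTCA occurred in the 4 windows, and CTTTGA occurred only in that of Cpz, where the capitals stand. Of 32851 promoters of this length, 0.423% held TCAAGGTCA, 4.72% AAGGTCA and 16.0% CTTTGA. The share of G and C was 75.0% for Loxl4, 71.7% for Igfbp3, 67.0% for Trim67 and 60.3% for Cpz. A match or its absence describes these letters in these windows and nothing further.

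Gene counts summed to between 25388139 and 37158661 in each wild-type sample and to between 19915222 and 20140699 in each Esrrb null or floxed sample. Levels are given in CPM, counts after scaling to a common library size, and the 2 sets of samples were scaled separately. Scaling all 18 together would move no sample by more than 1.82%. Counting ignored strand, so reads of overlapping genes on opposite strands cannot be told apart, but no exon of the 7 genes overlapped a gene on the other strand. Transcripts of Trim67, Gprc5c and Colec12 shared stretches of up to 231, 116 and 712 bases with transcripts of 17, 14 and 204 other genes, and their counts are uncertain to that extent. Exons of Trim67 also overlapped Gm16163 over 1.6% of their length. Esrrb itself had 142, 110 and 109 CPM in the floxed and 58.9, 63.8 and 59.8 CPM in the null samples, so reads were still counted on the gene. The counts are per gene, and the deletion cannot be checked from them.

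All 7 genes were higher in each null than in each floxed sample. Loxl4 and Btn1a1 were close to silent in the floxed cells, a parallel culture without 4OHT, whereas Colec12, Igfbp3 and Gprc5c were expressed there. By these values they were chosen, so they carry no test. Of 14893 genes tested in this comparison, 12.8% were called higher and 3.87% lower in null cells, and nothing is read from this share for genes picked here. A call here and throughout is an adjusted p below 0.01 with a log2 fold change beyond 1 by edgeR's quasi-likelihood test.

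Among the secreted proteins, Loxl4 (chr19:42593982-42612813, minus strand) had 0, 1 and 1 counts in the floxed replicates and 212, 245 and 255 in the null replicates. Its total was 329 times higher in null cells (95% exact interval 90.8 to 2720), and its log2 fold change of 8.12 ranked 2 among the genes tested. The interval covers counting error only, makes no allowance for the picking of the gene by this rise, and is no test. Cpz (chr5:35502218-35525698, minus strand) had 0.478, 0.564 and 0.673 CPM in floxed and 33.1, 30.2 and 31.3 CPM in null replicates, a log2 fold change of 5.77 (standard error 0.14). No floxed sample of Cpz reached 1 CPM. Igfbp3 (chr11:7206086-7213923, minus strand) rose from an already substantial level, with 10.7, 9.89 and 10.8 CPM in floxed and 52.9, 54.5 and 57.3 CPM in null replicates. Its log2 fold change was 2.39 (standard error 0.08), the smallest of the 7, with a rank of 523.

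Of the surface proteins, Btn1a1 (chr13:23456992-23465901, minus strand) had 3, 2 and 6 counts in floxed and 469, 268 and 375 in null replicates. This was a ratio of 93.5 (95% exact interval 52.1 to 188, with the limits named for Loxl4) and a log2 fold change of 6.50 (standard error 0.37). It was the most variable of the 7 in null cells, between 12.8 and 22.8 CPM. Gprc5c (chr11:114851152-114872617, plus strand) had 2.23, 2.31 and 2.02 CPM in floxed and 32.3, 35.3 and 36.3 CPM in null replicates, a log2 fold change of 3.98 (standard error 0.11). Colec12, on the plus strand of chromosome 18 from 9707595 to 9882644, had 11.7, 9.43 and 9.98 CPM in floxed and 74.0, 68.5 and 70.9 CPM in null replicates, a log2 fold change of 2.78 (standard error 0.09). Its floxed samples all lay above each wild-type sample, the highest of which had 5.11 CPM, although these sets differ in line, passage, time and scaling.

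Trim67 (chr8:124793092-124834713, plus strand) had 0.213, 0.205 and 0.724 CPM in floxed and 20.2, 25.9 and 26.2 CPM in null replicates, a log2 fold change of 5.96 (standard error 0.30). Floxed replicate 3 held 14 of its 22 floxed counts, and without it the log2 fold change was 6.80. Per kilobase of exon, Igfbp3 with 17.5 RPKM and Cpz with 14.05 RPKM were the most abundant of the 7 in null cells. Colec12 had 8.15, Gprc5c 6.60, Btn1a1 4.34, Trim67 2.76 and Loxl4 2.71 RPKM. In bulk RNA, more cells that express a gene and more RNA per cell cannot be told apart.

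**Figure D1:**
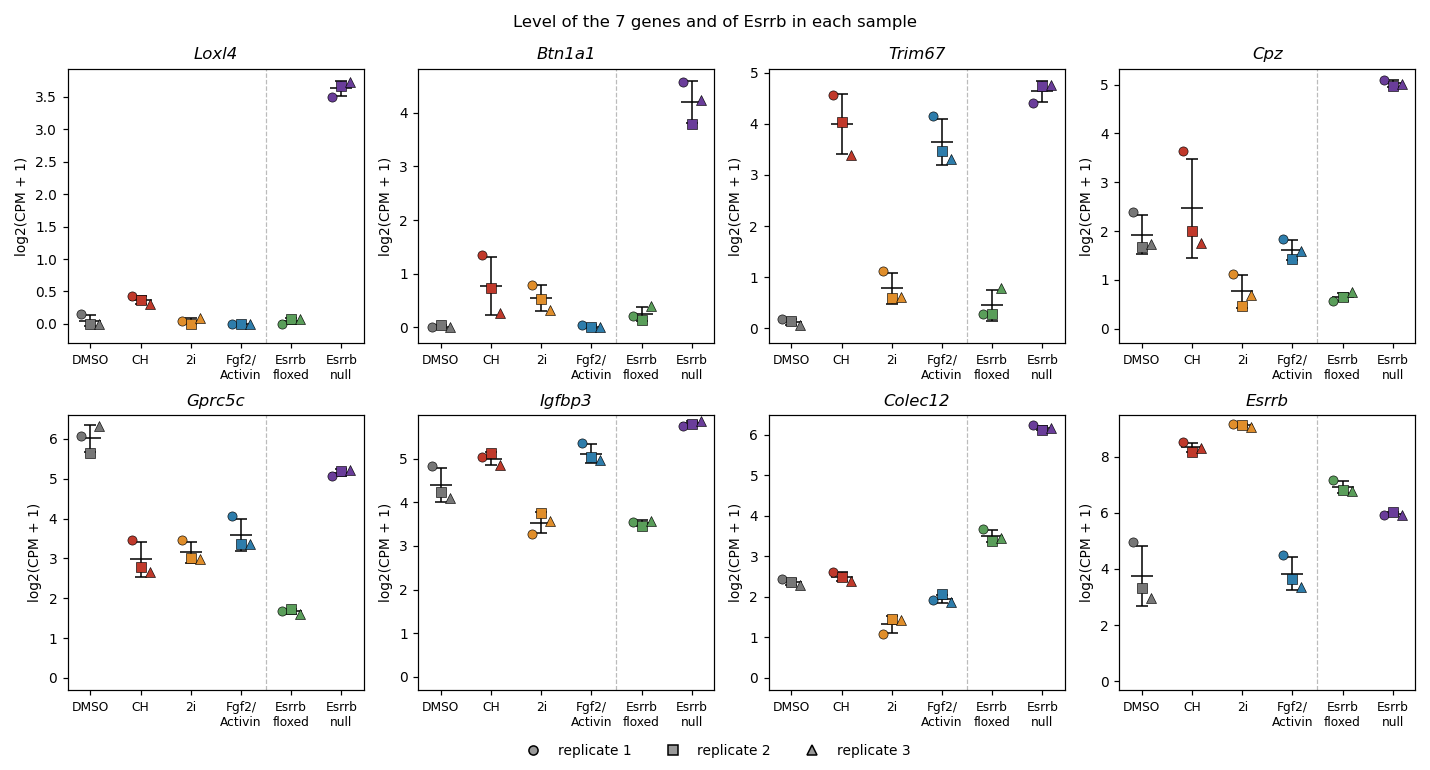
Level of each of the 7 genes and of Esrrb, as log2(CPM + 1), in every sample of the 6 groups (marker shape gives the replicate number, bars the mean ± SD of 3 samples), each panel with its own vertical scale and a dashed line between the wild-type and the Esrrb fl/fl samples. Gprc5c is highest in DMSO, Trim67 in CH and Fgf2/Activin, while Loxl4 and Btn1a1 reach at most 1.53 CPM in wild-type samples and at least 10.3 CPM in null samples.

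To ask in which wild-type state each gene is on, the 4 cultures were compared with each other. No wild-type state held all 7 genes high. CH was the condition with the highest mean for Loxl4, Btn1a1, Trim67, Cpz and Colec12, DMSO for Gprc5c, and Fgf2/Activin for Igfbp3, but several of these leads lay within the spread of the samples. 2i had the lowest mean for Cpz, Igfbp3 and Colec12, and in every replicate number these 3 genes were lower in 2i than in each other culture. Loxl4 had too few counts to be tested. Btn1a1 and Trim67 passed the filter through the cultures in which they were high, so that they had to differ somewhere.

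In CH against DMSO, Btn1a1 and Trim67 of the 6 genes tested were called higher (7.51% of all 16413 genes tested) and Gprc5c lower (10.2% of all genes). In 2i against DMSO, Btn1a1 and Trim67 were called higher (8.37% of all genes) and Gprc5c and Colec12 lower (14% of all genes). In Fgf2/Activin against DMSO, Trim67 was called higher (0.902% of all genes) and Gprc5c lower (0.347% of all genes). In these directions, 148 and 57 genes were called in all. In 2i against CH none of the 6 was called higher (0.317% of all genes), and Trim67, Igfbp3 and Colec12 were called lower (1.67% of all genes). Btn1a1 alone was called higher in CH than in Fgf2/Activin (7.9% of all genes), and none was called lower (10.3% of all genes). In 2i against Fgf2/Activin, Btn1a1 was called higher (9.13% of all genes) and Trim67 and Igfbp3 lower (14.4% of all genes). The 6 comparisons share samples and are not independent of each other. Their median log2 fold changes over the 6 genes ran from -1.58 in 2i against CH to 0.77 in CH against DMSO, while those over all genes stayed between -0.021 and 0.01.

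**Figure D2:**
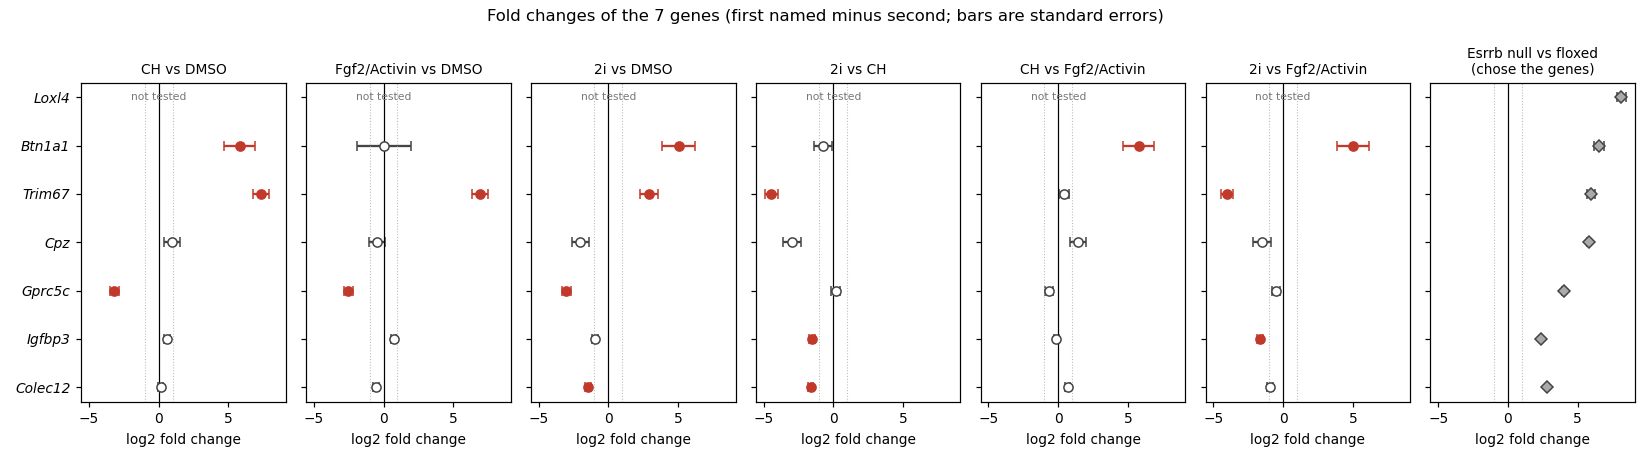
Log2 fold changes with standard errors of the 7 genes in the 6 wild-type comparisons and, at the right, between Esrrb null and floxed cells (first-named group minus second; dotted lines at -1 and 1). Filled circles passed an adjusted p of 0.01 and a log2 fold change beyond 1, open circles did not, and grey diamonds are the values that chose the genes. Trim67 spans from -4.44 in 2i against CH to 7.35 in CH against DMSO.

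Trim67 had the widest range of the 7 in wild-type cells. It was on in CH, with 22.75, 15.4 and 9.56 CPM, and in Fgf2/Activin, with 16.9, 10.02 and 8.97 CPM. In 2i it had 1.18, 0.501 and 0.531 CPM and in DMSO 0.133, 0.0939 and 0.0386 CPM, which were 5, 3 and 1 counts. CH and Fgf2/Activin overlapped, while 2i lay below both and above DMSO without overlap. The Esrrb floxed cells, which were also in CH, had at most 0.724 CPM of Trim67, but differ in line, passage, time and scaling. Against DMSO, the log2 fold change of CH was 7.35 (adjusted p = 3.06e-06) and that of Fgf2/Activin 6.94 (adjusted p = 5.35e-05), with a standard error of 0.57 for each. Against CH, 2i differed by -4.44 (standard error 0.45, adjusted p = 0.000381), although both cultures contained CHIR99021 at the same dose. A difference between CH and Fgf2/Activin was not detected (0.41, standard error 0.37, adjusted p = 0.402). The smaller difference of 2.91 between 2i and DMSO (adjusted p = 0.00285) rested on 68 against 9 counts. It was not called without 2i replicate 1 (2.42, adjusted p = 0.0119), DMSO replicate 2 (2.91, adjusted p = 0.0122) or DMSO replicate 3 (2.63, adjusted p = 0.0128).

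Gprc5c showed another order and was highest in DMSO. It had 65.75, 49.0 and 79.6 CPM there, against 10.1, 5.89 and 5.36 CPM in CH, 9.996, 7.02 and 6.94 CPM in 2i, and 15.6, 9.20 and 9.21 CPM in Fgf2/Activin. Every DMSO sample lay above all others, and the remaining 3 cultures overlapped, although within each replicate number CH and 2i were lower than Fgf2/Activin. The log2 fold changes against DMSO were -3.18 in CH (standard error 0.31, adjusted p = 1.62e-05), -3.02 in 2i (standard error 0.31, adjusted p = 1.41e-05) and -2.51 in Fgf2/Activin (standard error 0.30, adjusted p = 0.000716). Between these 3 cultures no call was made, with adjusted p from 0.0877 to 0.86. The level of the null cells, 34.6 ± 2.103 CPM (SD, n = 3), lay between that of DMSO, 64.8 ± 15.3 CPM (SD, n = 3), and those of the other cultures, in another line and scaled apart.

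Igfbp3 and Colec12 were expressed in all cultures and lowest in 2i. Igfbp3 had 27.5, 17.9 and 16.2 CPM in DMSO, 31.7, 33.9 and 27.8 CPM in CH, 39.9, 31.6 and 30.2 CPM in Fgf2/Activin, and 8.60, 12.4 and 10.9 CPM in 2i. The 2i samples lay below all others, and those of CH and Fgf2/Activin overlapped. On the log2 scale, 2i differed from CH by -1.55 (standard error 0.21, adjusted p = 0.00145) and from Fgf2/Activin by -1.67 (standard error 0.21, adjusted p = 6.27e-05). Against DMSO the value of -0.95 passed the adjusted p (0.00299) but not the minimum fold. It was called without 2i replicate 2 (-1.06, adjusted p = 0.00512), DMSO replicate 2 (-1.04, adjusted p = 0.00483) or DMSO replicate 3 (-1.09, adjusted p = 0.00216). CH and Fgf2/Activin had values of 0.60 and 0.72 over DMSO, with adjusted p of 0.0347 and 0.0769, and were not called.

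Colec12 had 4.43, 4.16 and 3.90 CPM in DMSO, 5.11, 4.58 and 4.24 CPM in CH, 2.80, 3.19 and 2.64 CPM in Fgf2/Activin, and 1.12, 1.71 and 1.69 CPM in 2i. DMSO and CH overlapped, Fgf2/Activin lay below both and 2i below all. The log2 fold change of 2i was -1.46 against DMSO (standard error 0.20, adjusted p = 9.91e-05) and -1.62 against CH (standard error 0.20, adjusted p = 0.000882). The latter was not called when only the 6 samples of 2i and CH were fitted (adjusted p = 0.0149). Against Fgf2/Activin the value of -0.93 (adjusted p = 0.00214) stopped short of the minimum fold, and it was called without 2i replicate 2 (-1.02, adjusted p = 0.00472) or 2i replicate 3 (-1.01, adjusted p = 0.00523). CH and DMSO differed by 0.16 (adjusted p = 0.534), and the lower level in Fgf2/Activin was not called against DMSO (-0.53, adjusted p = 0.164) or CH (0.69 in favour of CH, adjusted p = 0.0118).

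Cpz was variable in CH, with 11.4, 3.01 and 2.40 CPM in replicates 1 to 3. It had 4.22, 2.19 and 2.31 CPM in DMSO, 2.56, 1.68 and 2.02 CPM in Fgf2/Activin, and 1.18, 0.383 and 0.625 CPM in 2i. The 2i samples lay below all others, and the other cultures overlapped. With edgeR's filter on low counts and without regard to replicate numbers, no comparison of Cpz was called. DESeq2's test called it lower in 2i than in DMSO and CH, and edgeR with no filter lower in 2i than in CH. With the replicate number as a block, Cpz was called lower in 2i than in DMSO (-2.04, adjusted p = 0.000414), CH (-2.80, adjusted p = 0.000338) and Fgf2/Activin (-1.61, adjusted p = 0.00235), and higher in CH than in Fgf2/Activin (1.19, adjusted p = 0.00588). The unblocked values were -2.01 (adjusted p = 0.0194), -2.95 (adjusted p = 0.0163), -1.52 (adjusted p = 0.061) and 1.43 (adjusted p = 0.0643). Over DMSO, CH had a log2 fold change of 0.94 (adjusted p = 0.204). Without CH replicate 1, the unblocked values became -0.11 over DMSO, 0.38 over Fgf2/Activin (adjusted p = 0.497) and, for 2i against CH, -1.90 (adjusted p = 0.0313).

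Btn1a1 was detected in the cultures with CHIR99021. It had 45, 20 and 5 counts in CH and 21, 15 and 8 counts in 2i, but 1 count in all of DMSO and 1 in all of Fgf2/Activin. Each CH and 2i sample lay above each sample of the other cultures. The ratio of CH to DMSO was 78.6 (95% exact interval 13.6 to 3150, counting error only), which is 5.79 on the log2 scale of the fit (standard error 1.09, adjusted p = 0.00146). Against Fgf2/Activin the ratio was 76.2 (95% exact interval 13.2 to 3050), or 5.77 on the log2 scale (adjusted p = 0.00146). Without CH replicate 1 these log2 fold changes were 4.92 over DMSO (adjusted p = 0.00363) and 4.89 over Fgf2/Activin (adjusted p = 0.00373). They were 7.62 without DMSO replicate 2 (adjusted p = 0.00663) and 7.62 without Fgf2/Activin replicate 1 (adjusted p = 0.0068), the libraries with the single count. With only the 6 samples of a comparison in the fit, Btn1a1 passed the filter on low counts in 2i against CH alone and was not tested in the others. For 2i the ratios were 44.3 to DMSO (95% exact interval 7.55 to 1790, adjusted p = 0.00391) and 43.0 to Fgf2/Activin (95% exact interval 7.32 to 1740, adjusted p = 0.00392). Neither call of 2i held when 2i replicate 1 was left out (adjusted p = 0.0128 and 0.013). That against DMSO was also lost without DMSO replicate 1, 2 or 3 (adjusted p = 0.0175, 0.012 and 0.0152), and that against Fgf2/Activin without its replicate 1, 2 or 3 (adjusted p = 0.0124, 0.0175 and 0.0169). CH and 2i were not distinguished (log2 fold change of 2i over CH -0.77, adjusted p = 0.605). Even the highest wild-type sample, with 1.53 CPM, stayed far below the null cells with 17.9 ± 5.00 CPM (SD, n = 3).

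Loxl4 was close to silent in every wild-type culture. It had 10, 9 and 6 counts in CH, 4, 0 and 0 in DMSO, 1, 0 and 2 in 2i, and none in Fgf2/Activin, where 0 counts allow a mean of up to 0.0325 CPM. All 3 CH samples lay above the other wild-type samples. By counting error alone, CH was 7.02 times DMSO (95% exact interval 2.42 to 27.7) and 9.28 times 2i (95% exact interval 2.83 to 48.0). With the 0 counts of Fgf2/Activin set to a floor of 3 over the group, CH was 9.07 times that level, with no allowance for error in the CH counts. Without the filter on low counts, edgeR's adjusted p was 0.00381 for CH against Fgf2/Activin, 0.0368 against DMSO and 0.107 for 2i against CH. The mean of 0.292 ± 0.0503 CPM (SD, n = 3) in CH compares with 11.4 ± 0.977 CPM (SD, n = 3) in the null cells, which were also in CH.

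By the same measure Esrrb itself was high in both cultures with CHIR99021, at 321 ± 38.6 CPM in CH and 549.5 ± 17.9 CPM in 2i (SD, n = 3 each). In DMSO and Fgf2/Activin it had 15.3 ± 12.9 and 14.0 ± 6.49 CPM (SD, n = 3 each), the highest of each being replicate 1. The wild-type levels of the 7 genes did not mirror this order as a group. Gprc5c was highest in DMSO and lower in Fgf2/Activin, although Esrrb was low in both. Btn1a1 exceeded 1 count per sample only in the cultures where Esrrb was high. Trim67 was on in a culture with and a culture without abundant Esrrb. Cpz, Igfbp3 and Colec12 had their lowest means in 2i, where Esrrb was highest. In CH, where Esrrb was also high, Loxl4, Cpz and Colec12 had their highest means, though Cpz and Colec12 overlapped with DMSO.

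Genes whose profile over the 12 wild-type samples lay closest were found by the root-mean-square difference of log2(CPM + 1), each gene centred on its own mean, among 13220 genes whose mean reached 1 CPM. Loxl4 and Btn1a1 spanned too narrow a range for this. The nearest to Trim67 was Fgf8, a secreted growth factor of the primitive streak, at 0.778, followed by Ppp4r4, a protein phosphatase regulator, at 0.801. Since Trim67 itself varied by 1.74 on this measure, both are loose matches. Fgf8 had 5.83 ± 3.72 CPM in CH, 3.96 ± 1.73 in Fgf2/Activin, 0.188 ± 0.0428 in 2i and 0.184 ± 0.143 in DMSO (SD, n = 3 each). Between Esrrb null and floxed cells, which the search did not use, Fgf8 was called higher by 5.63 (adjusted p = 2.03e-05) and Ppp4r4 by 2.69 (adjusted p = 2.2e-06). Of all genes tested in that comparison, 12.8% were called higher. Fgf8 had at most 0.414 CPM in floxed samples and passed the filter on low counts there only through the null samples. Its call was thus close to fixed in advance and is given as a description.

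Cpz lay closest to Tmprss2, a transmembrane serine protease, at 0.276 and to Vopp1 at 0.308, against 0.777 for its own variation. Tmprss2 was called higher in null cells by 5.85 (adjusted p = 1.59e-05) and Vopp1 by 2.13 (adjusted p = 4.52e-05). Tmprss2 had at most 0.259 CPM in floxed samples and passed the filter only through the null samples. Its call, like that of Fgf8, was thus close to fixed in advance. For Igfbp3 the nearest were Lrp8, a receptor for reelin, at 0.184 and Cd274, the immune checkpoint ligand PD-L1, at 0.271. Of this pair, Cd274 was called higher in null cells (3.22, adjusted p = 2.33e-05) and Lrp8 was not (0.42, adjusted p = 0.0331). Colec12 lay closest to Cnppd1 at 0.141 and to the Fgf receptor gene Fgfr1 at 0.186, but its own profile varied by only 0.472, and 28.4% of the candidates lay within 0.5 of it. In null cells Cnppd1 was called higher (1.43, adjusted p = 1.12e-05), while Fgfr1 stopped short of the minimum fold (0.25, adjusted p = 0.00201). Gprc5c lay closest to Lmx1b, a LIM homeobox factor, at 0.406 and to ENSMUSG00000089855, for which no symbol was found, at 0.422. Lmx1b had 5.435 ± 2.99 CPM in DMSO and at most 0.481 CPM in any other wild-type sample, and it had at most 0.0512 CPM in floxed and between 0.292 and 0.431 CPM in null samples, without a test because of its low counts. The other neighbour was not called between null and floxed cells (0.07, adjusted p = 0.898).

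**Figure D3:**
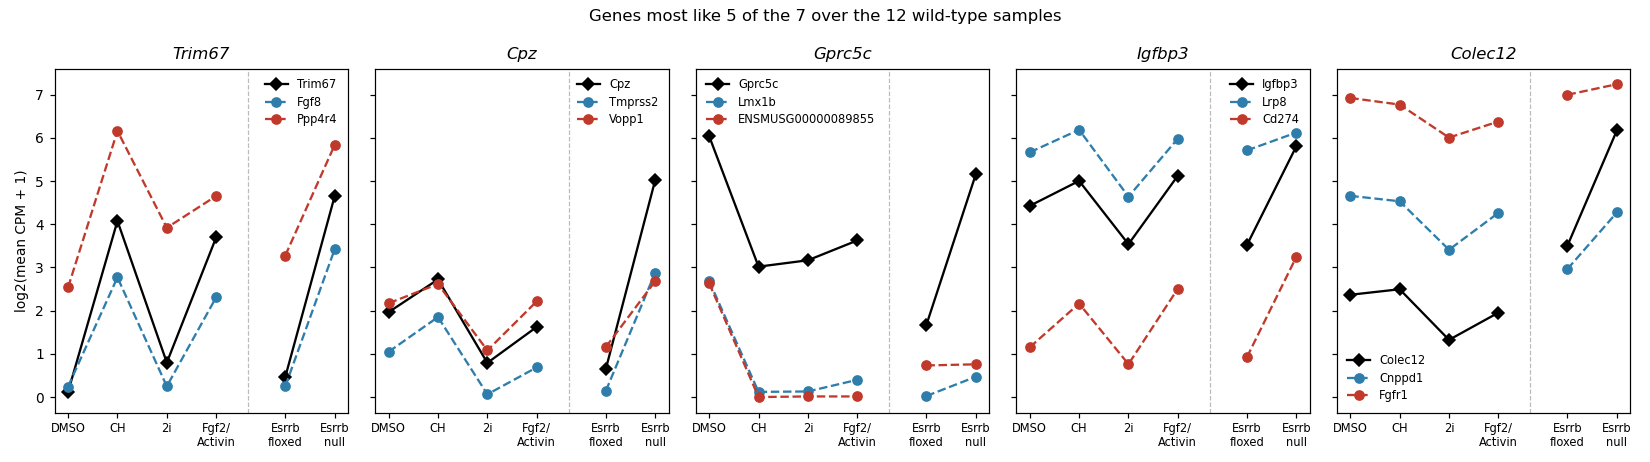
Mean level, as log2(mean CPM + 1), of 5 of the 7 genes (black) and of their 2 nearest genes (blue, nearest, and red) in the 4 wild-type cultures and, right of the dashed line, in Esrrb floxed and null cells, which the search did not use. Lines join groups only to guide the eye. Fgf8 and Tmprss2 rise with Trim67 and Cpz in null cells, by 5.63 and 5.85 on the log2 scale, and Lmx1b, a neighbour of Gprc5c, goes from 0.0171 CPM in floxed to 0.384 CPM in null cells. Fgf8 and Tmprss2 passed the filter in that comparison only through the null samples. Lrp8, Fgfr1 and ENSMUSG00000089855 were not called between null and floxed cells.

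Other genes of the same families and pathways were tested in the comparison of Esrrb null with floxed cells, where 12.8% of all genes were called higher and 3.87% lower. Of the 3 other lysyl oxidases tested, Loxl1 (1.91) and Loxl3 (1.87) were called higher and Loxl2 was not (-0.55, adjusted p = 0.0201). Btn2a2, the only other butyrophilin with enough reads, was called higher by 1.69, and Mid2, of 4 class I TRIM genes, by 1.93. The carboxypeptidases that resemble Cpz had 5 of 7 genes called higher and none lower. They were Cpxm2 (4.78), Cpe (2.83), Cpxm1 (1.87), Cpd (1.39) and Aebp1 (1.26), of which Cpe processes neuropeptide precursors. Neither of the related receptors Gprc5a and Gprc5b was called (0.33 and 0.20). Among retinoid-responsive genes, the retinol transporter Stra6 was called higher (2.50) and Crabp1 lower (-1.54).

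Around Igfbp3, 6 of 11 other genes of insulin-like growth factor signalling were called higher and 2 lower in null cells. The ligand Igf2 rose by 3.10, the insulin receptor Insr by 1.01, and its adaptors Irs1 and Irs2 by 2.19 and 1.51. Of the binding proteins, Igfbp4 (1.75) and Igfbp5 (1.24) rose with Igfbp3, and Igfbp2 (-1.13) fell. Stc2, an inhibitor of the protease that cleaves Igfbp4, fell too (-1.61). Exons of Igf2, Irs1 and Loxl3 overlap other genes over 64.55%, 30.86% and 11.62% of their length, so their counts are uncertain. Of the relatives of Colec12, Scara5 alone had enough reads and was not called (0.91, adjusted p = 0.0782).

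In wild-type cells the genes of a family moved in different directions. Between Fgf2/Activin and DMSO, where Trim67 and Gprc5c were called, no relative in any family was called by edgeR. Loxl1 and Loxl2 were lower in CH than in DMSO by -3.87 and -2.39, and Trim46 by -3.59, whereas Trim67 was higher. Gprc5b fell with Gprc5c (-2.22), but Gprc5a rose (4.21), from 0.462 to 8.81 CPM. Exons of Gprc5b overlap Iqck on the opposite strand over 13.09% of their length, so the counts of Gprc5b are uncertain. Igfbp5 fell from 81.2 CPM in DMSO to 1.41 CPM in CH (-5.83), whereas Igfbp3 had 0.60 and was not called, and Igfbp2 (-1.82), Igf2 (-2.34) and Stc1 (-4.67) fell too, while Stc2 rose (1.16). Of the carboxypeptidases related to Cpz, Cpe (-1.32), Cpd (-1.13) and Cpxm1 (-1.03) were lower in CH than in DMSO. Cpxm2 was higher in CH than in DMSO (4.26, adjusted p = 2.35e-05) and Fgf2/Activin (4.54, adjusted p = 1.74e-05) and lower in 2i than in CH (-3.13, adjusted p = 0.00122). Its exons overlap Gm15677 over 7.59% of their length. Scara5 was likewise higher in CH than in DMSO (3.74, adjusted p = 3.84e-06) and lower in 2i than in CH (-3.46, adjusted p = 0.000134), and Scara3 had no counts in 2i.

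**Figure D4:**
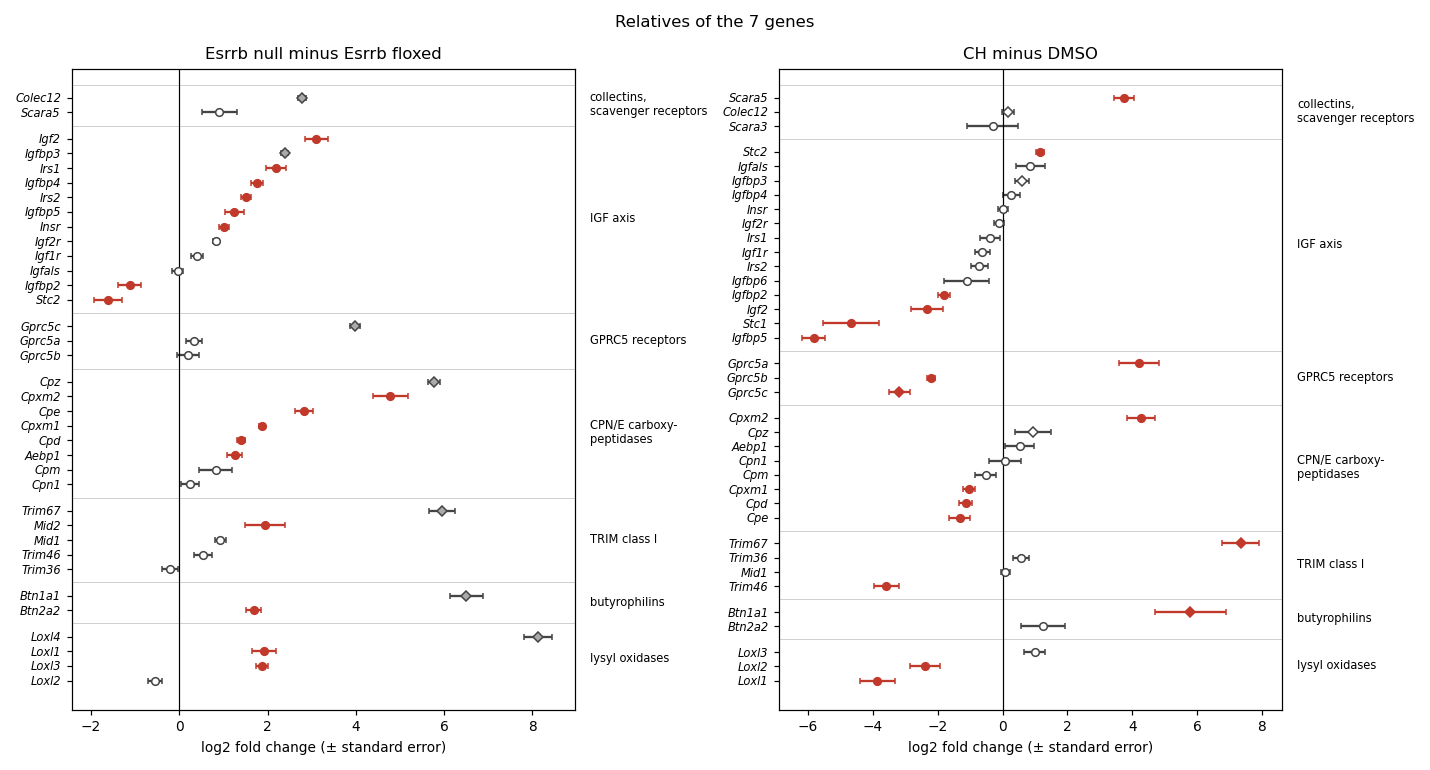
Log2 fold changes with standard errors of the 7 genes (diamonds) and the tested genes of their families and pathways (circles), grouped by family, between Esrrb null and floxed cells (left) and between CH and DMSO (right). Red symbols were called and open ones were not, and grey diamonds are the values that chose the 7 genes. In CH against DMSO, Gprc5c falls with Gprc5b while Gprc5a rises, and Igfbp5 falls by 5.83 on the log2 scale.

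Markers of other cell types moved with the 7 genes, and their part in the results was not tested. In null cells, where 12.8% of all genes were called higher and 3.87% lower, 5 of 9 trophoblast markers were called higher, led by the keratins Krt8 (5.02), Krt18 (4.41) and Krt7 (4.30), and 1 lower. Their sum rose from between 65.8 and 67.6 CPM in floxed to between 208.7 and 360.1 CPM in null samples, while Elf5 stayed under 0.5 CPM. Wild-type sums of this list were 138 to 377 CPM in DMSO and 131 to 274.5 CPM in Fgf2/Activin, which overlapped those of null cells. They were 107.5 to 155.2 CPM in CH and 70.96 to 94.84 CPM in 2i. Krt7 was under 0.5 CPM in floxed samples and passed the filter through the null samples. The paper describes Krt18 as a component of polarised epithelia. Of 6 mesoderm and streak markers, T, Mixl1 and Evx1 were called higher and Kdr lower, and the sum rose from at most 92.3 to at least 441.9 CPM, with Mesp1, Gsc and Hand2 under 0.5 CPM. Of 9 primitive endoderm markers 4 were called higher and 1 lower, with sums of 325.2 to 365.3 CPM in floxed and 539.7 to 762.5 CPM in null samples, and Gata6, Sox17 and Sox7 under 0.5 CPM in null cells. Fibroblast markers summed to 18.6 to 26.9 CPM in floxed and 14.1 to 15.4 CPM in null samples, although 4 of 5 tested were called higher. In floxed samples 9 of the 10 fibroblast markers were under 0.5 CPM, so those of them that were tested passed the filter through the null samples. The pluripotent cell markers stayed the most abundant list, at 4933 to 5162 CPM in floxed and 2847 to 3326 CPM in null samples, with 1 of 10 called lower. In wild-type cells the mesoderm and streak markers summed to 477 to 711.7 CPM in CH, 91.6 to 122.9 CPM in 2i, 6.00 to 8.45 CPM in DMSO and 7.85 to 9.20 CPM in Fgf2/Activin. The sums of Fgf2/Activin and DMSO overlapped.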

How the data were processed

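Poly(A) RNA of 18 samples was sequenced from libraries of a directional kit. The authors used TopHat2 with mm10 for alignment and HTSeq, ignoring strand, for counting on Ensembl genes of GRCm38, and the values they deposited are raw counts. Groups and replicate numbers came from the labels. From the counts, edgeR 4.0.16 (R 4.3.3) fitted the 12 wild-type and the 6 Esrrb fl/fl samples separately, with TMM scaling, filterByExpr, quasi-likelihood tests and Benjamini-Hochberg adjustment over all genes, and thresholds from the study's methods (adjusted p below 0.01, absolute log2 fold change above 1). RPKM is CPM per kilobase of merged exons. The genes and gene lists were chosen with earlier results of these data known. The genes named are the 7, Esrrb, genes of the family lists called in any comparison, the 2 nearest genes of each of the 7 that spanned at least 1 log2 unit between wild-type means, and markers of the listed cell types. A few family members that were not called are named beside the called ones, after their values were seen. Some genes of the retinoid list are not reported here. Transcripts were compared with blastn 2.17.0 (matches of at least 75 bases at 95% identity), with 49412 of 49671 identifiers found in the GENCODE annotation, and figures were drawn with matplotlib 3.10.9.

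Same-numbered samples of different groups deviated together (r from 0.387 to 0.841 over 21 pairs), so a fit with a block for replicate number was added for each wild-type comparison. Replicates differed beyond counting noise (chi-square per gene 1.46 to 65.9 over 18 pairs). In every group replicates 2 and 3 were the closest pair (1.46 to 8.57), and pairs with replicate 1 had 11.8 to 65.9. Replicate 1 therefore carries much of the spread behind the SDs and p-values. Further alternatives were the size factors and the test of DESeq2 1.42.0, no filter, at least 10 counts in every sample, glmTreat, only the 6 samples compared, and each replicate left out. The fits were tested on simulated counts. Intervals and floors cover counting error only.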

Additional observations from a re-analysis of the deposited data

How the results depend on the processing

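Of 415 recomputed wild-type fold changes of the 6 genes tested, 383 kept their direction and their side of the threshold, 12 gained a call, 12 lost one and 8 turned direction, none of them called. Those that turned did so with a replicate left out. Over the fits that each left out a replicate, Gprc5c in 2i against CH ran from -0.027 (without 2i replicate 1) to 0.50 and was -0.01 without CH replicate 3. Cpz in CH against DMSO ran from -0.11 (without CH replicate 1) to 1.33, Btn1a1 in 2i against CH from -1.21 to 0.11 (without CH replicate 1), and Igfbp3 in CH against Fgf2/Activin from -0.20 to 0.0089 (without Fgf2/Activin replicate 1). Btn1a1 in Fgf2/Activin against DMSO, where each had 1 count, ran from -1.83 (without Fgf2/Activin replicate 1) to 1.86 and was -0.51 without DMSO replicate 1 and -0.32 without DMSO replicate 3. The cause was not tested. Loxl4 could be fitted in wild-type cells only with no filter, which called it in CH against Fgf2/Activin (6.19, adjusted p = 0.00381).

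The number of the 7 genes called in CH against Fgf2/Activin was 1 and became 2 with no filter, 2 with the replicate block, 0 with only the 6 samples compared, where Btn1a1 did not pass the filter, and 0 with at least 10 counts in every sample. That last filter left 4 genes to test and gave 1 instead of 3 in CH against DMSO, 2 instead of 4 in 2i against DMSO, 1 instead of 2 in Fgf2/Activin against DMSO and 1 instead of 3 in 2i against Fgf2/Activin. With glmTreat against a log2 fold change of 1 it was 1 in 2i against DMSO, 1 in Fgf2/Activin against DMSO and 1 in 2i against CH. With replicates left out it ran from 2 to 5 in 2i against DMSO, with 2 reached without 2i replicate 1, from 2 to 4 in 2i against Fgf2/Activin, and stayed at 3, 2, 3 and 1 in CH against DMSO, Fgf2/Activin against DMSO, 2i against CH and CH against Fgf2/Activin. The block changed calls of Cpz and of no other gene of the 7. Cpz was also called lower in 2i by DESeq2's test, against DMSO (-2.002, adjusted p = 0.00278) and CH (-2.94, adjusted p = 4.22e-05), and against CH with no filter (-2.95, adjusted p = 0.00573).

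Depth limits Loxl4 and Btn1a1 most, since few reads were counted in wild-type cells. Between null and floxed cells, replicates left out moved the log2 fold change of Loxl4 from 7.63 to 8.46, of Btn1a1 from 6.20 to 7.02 and of Trim67 from 5.65 to 6.80.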

Other observations

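The 7 genes come from a wider set of 1909 genes called higher in Esrrb null than in floxed cells. For this comparison the paper reports fewer genes, higher as well as lower, with DESeq2 at the same stated thresholds. Why the counts differ was not tested. Of the 1909 genes, 1829 were among the 16413 genes tested in the wild-type cultures. In CH against DMSO, 29.5% of these were called lower (10.2% of all genes tested) and 9.9% higher (7.51% of all genes), which were 32.2% of all genes called lower and 14.7% of all called higher there. In 2i against DMSO the shares were 43.3% lower (14% of all genes) and 7.27% higher (8.37% of all genes), or 34.5% and 9.69% of all genes called. In Fgf2/Activin against DMSO they were 0.383% lower (0.347% of all genes) and 3.01% higher (0.902% of all genes). These 55 higher genes were 37.2% of all genes called higher in that comparison, and Trim67 was among them. In 2i against CH, 9.02% were lower (1.67% of all genes) and 0.547% higher (0.317% of all genes). The 165 lower genes, with Trim67, Igfbp3 and Colec12 among them, made up 60.2% of all genes called lower, and the 10 higher genes 19.2% of all called higher. The wild-type comparisons share samples, and the counts were not tested.

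Among retinoid-responsive genes in wild-type cells, the retinol transporter Stra6 (-4.92) and Crabp2 (-2.89) were called lower in CH than in DMSO, as was Gprc5c.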
